A study of Mus musculus with 6 samples.

Results

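The 9 genes described here encode the CD3 chains of the T-cell receptor and the first proteins that act on them. They were taken by name (Cd3d, Cd3e, Cd3g, Cd247, Lck, Fyn, Zap70, Lat and Lcp2) from the 47729 genes counted in each library, and all 9 were found. In mature T cells the antigen-binding receptor chains have no signalling tail of their own. They depend on CD3 delta, epsilon and gamma (Cd3d, Cd3e, Cd3g) and on the zeta chain (Cd247), whose tails carry paired tyrosines. The Src family kinases LCK and FYN phosphorylate these tyrosines, the kinase ZAP70 docks on them, and ZAP70 in turn phosphorylates the adaptors LAT and SLP-76 (Lcp2), on which the later signalling enzymes assemble. In the thymus these genes come into use before a receptor is assembled, and the early T-cell programme depends on Notch signals read out by the DNA-binding protein RBPJ.

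RNA was sequenced from DN1a/b cells, the earliest thymocytes, sorted by flow cytometry from the thymus of C57BL/6 mice, with 2 libraries in each of 3 groups. RBPJ 6 days induced mice began without RBPJ and were made to express it with doxycycline, by intraperitoneal injection (2 mg/ml) followed by drinking water (1 mg/ml). RBPJ uninduced mice lacked RBPJ, and Control mice had it throughout. The sources used here give neither the alleles, the driver of the deletion and the age of the mice, nor whether Control or uninduced mice received doxycycline. Where induced libraries are compared, RBPJ and doxycycline therefore cannot be told apart. Since the labels leave unsaid whether a group's libraries are separate mice, the p-values cover only the spread among these libraries, and that spread may be technical.

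Libraries held 5098927 to 12932928 counts. Rbpj stood at 198 and 203 CPM (counts scaled by library size) in induced, 28.2 and 30.0 CPM in uninduced and 74.1 and 72.9 CPM in Control libraries. It was lowest in the uninduced group, where counts remained, and gene counts do not show from which exons. The 5 markers listed for the labelled cells (Kit, Cd44, Flt3, Ptprc, Cd24a) were detected in every library and summed to 1880 and 1860 CPM in induced, 1250 and 1230 CPM in uninduced and 1870 and 1610 CPM in Control libraries. The sums hide differences between markers. In uninduced against Control libraries 3 of the 5 log2 fold changes were below 0 and 2 above. Flt3 had 56.2 and 20.7 CPM in uninduced and 168 and 88.3 CPM in Control libraries. Kit had 630 and 398 CPM in uninduced and 515 and 372 CPM in Control libraries, and Cd24a 119 and 273 CPM against 137 and 137 CPM. A pair of libraries stood apart in markers of other cells. Control replicate 2 held 618 CPM of the 8 markers of later alpha-beta thymocytes against 46.4 CPM in Control replicate 1, 40.6 and 51.7 CPM in induced and 23.5 and 149 CPM in uninduced libraries. Uninduced replicate 2 held 747 CPM of the 7 B-lineage markers, against 30.3 CPM in uninduced replicate 1, 8.92 and 40.1 CPM in induced and 7.01 and 22.8 CPM in Control libraries.

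The 3 CD3 genes lie together on chromosome 9 (mm10). Cd3g (ENSMUSG00000002033, 44969572 to 44980431, minus strand) and Cd3d (ENSMUSG00000032094, 44981786 to 44987339, plus strand) are transcribed away from each other from annotated starts 1355 bases apart. Cd3e (ENSMUSG00000032093, 44998740 to 45009627, minus strand) starts 27841 bases from Cd3d. The other genes are scattered. Cd247 (ENSMUSG00000005763) lies on chromosome 1 from 165788681 to 165877277 and Zap70 (ENSMUSG00000026117) on the same chromosome from 36761798 to 36782818, both on the plus strand. Lck (ENSMUSG00000000409) is on chromosome 4 from 129548344 to 129573641 on the minus strand. Fyn (ENSMUSG00000019843) is on chromosome 10 from 39368855 to 39565381 and Lcp2 (ENSMUSG00000002699) on chromosome 11 from 34046920 to 34092295, both on the plus strand. Lat (ENSMUSG00000030742) is on chromosome 7 from 126363824 to 126369570 on the minus strand.

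The promoters of the members that passed a test, Lck and Lcp2, and of the divergent pair Cd3g and Cd3d are shown because these genes are described together in what follows. Each runs 5′ to 3′ from 250 bases before to 50 bases after a RefSeq start site (GRCm38.p6, the same build as mm10). Lck has 2 such start sites, 15269 bases apart, and gene counts do not separate them. Capitals mark TGGGAA, the core bound by RBPJ, and CTTTGA, the core bound by the T-lineage factor TCF1 and its relatives, on either strand, so that a site on the other strand reads TTCCCA or TCAAAG.
Lck, upstream start site (chr4:129573592-129573891, minus strand): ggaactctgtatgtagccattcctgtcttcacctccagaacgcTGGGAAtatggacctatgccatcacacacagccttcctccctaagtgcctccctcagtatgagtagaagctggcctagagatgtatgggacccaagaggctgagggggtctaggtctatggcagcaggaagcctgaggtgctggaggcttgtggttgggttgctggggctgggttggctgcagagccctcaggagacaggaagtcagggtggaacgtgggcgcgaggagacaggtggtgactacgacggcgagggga
Lck, downstream start site (chr4:129558323-129558622, minus strand): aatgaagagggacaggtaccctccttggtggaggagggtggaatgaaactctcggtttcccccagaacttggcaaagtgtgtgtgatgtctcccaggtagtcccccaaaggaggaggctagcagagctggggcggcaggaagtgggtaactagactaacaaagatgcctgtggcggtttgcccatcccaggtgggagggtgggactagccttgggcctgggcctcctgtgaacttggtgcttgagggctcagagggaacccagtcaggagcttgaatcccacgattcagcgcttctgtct
Lcp2 (chr11:34046678-34046977, plus strand): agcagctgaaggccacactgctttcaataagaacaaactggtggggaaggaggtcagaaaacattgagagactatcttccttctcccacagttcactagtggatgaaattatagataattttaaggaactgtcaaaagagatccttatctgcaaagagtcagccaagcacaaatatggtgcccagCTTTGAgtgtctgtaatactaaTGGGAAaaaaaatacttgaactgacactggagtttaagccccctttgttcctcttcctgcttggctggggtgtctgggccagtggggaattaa
Cd3g (chr9:44980382-44980681, minus strand): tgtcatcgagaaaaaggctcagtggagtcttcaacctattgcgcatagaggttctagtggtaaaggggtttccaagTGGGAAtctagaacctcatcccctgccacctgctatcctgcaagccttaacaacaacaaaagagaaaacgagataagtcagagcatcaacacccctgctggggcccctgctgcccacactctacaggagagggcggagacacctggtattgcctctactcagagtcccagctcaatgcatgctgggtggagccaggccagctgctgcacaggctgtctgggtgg
Cd3d (chr9:44981536-44981835, plus strand): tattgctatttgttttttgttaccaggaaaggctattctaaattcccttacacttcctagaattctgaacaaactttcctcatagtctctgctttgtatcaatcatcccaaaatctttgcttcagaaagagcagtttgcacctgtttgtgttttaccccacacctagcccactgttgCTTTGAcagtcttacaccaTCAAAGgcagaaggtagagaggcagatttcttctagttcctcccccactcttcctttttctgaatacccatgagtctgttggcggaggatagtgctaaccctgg
The RBPJ core stood in the upstream Lck promoter with its first base at -207, in that of Lcp2 at -43 and in that of Cd3g at -174, counted from the start site at 0. The downstream Lck promoter and that of Cd3d held none. The TCF1 core stood in the Lcp2 promoter at -65 and in the Cd3d promoter at -73 and -54. Of the 12 promoters listed for the 9 genes, 6 held TGGGAA (Cd3e, Zap70 and Lat have the others) and 5 held CTTTGA, against 25.6% and 16% of 32817 mouse promoters of the same length. The E-box CAGNTG stood in 11 of the 12 (51.4% of all promoters), the ETS core AGGAAG in 9 (35.4%), the RUNX core TGTGGT in 3 (16.8%) and the GATA core AGATAA in 2 (11.2%), all searched on both strands. A match describes these letters and is neither a binding site nor a cause, and its absence says nothing about a factor.

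Per exon length, the signalling genes were spread over a wide range of levels. In induced libraries Lcp2 averaged 38.4 ± 4.10 CPM per kb, Lck 28.5 ± 3.73, Fyn 19.2 ± 1.59 and Lat 9.70 ± 2.34 CPM per kb (mean ± SD, n = 2), with Cd3g at 1.52, Cd247 at 1.46, Cd3e at 1.18, Zap70 at 0.575 and Cd3d at 0.122 CPM per kb. In uninduced libraries Lck stood lower in the order, at 1.13 and 3.65 CPM per kb, below Lat at 3.83 and 4.43 CPM per kb. In Control libraries Lcp2 averaged 39.9 ± 1.04 CPM per kb, Lck 38.7 ± 0.431, Fyn 22.6 ± 3.44 and Lat 10.9 ± 7.53 CPM per kb. Below them came Cd247 at 5.53 ± 4.44, Cd3e at 4.55 ± 5.53, Cd3g at 3.71 ± 4.85, Cd3d at 2.59 ± 3.37 and Zap70 at 1.84 ± 1.24 CPM per kb. The Control libraries of Lck and Fyn did not overlap, nor did those of Fyn and Lat. From Lat downward each gene overlapped the next, so that their order is within the spread of the libraries. In Control replicate 1 alone the CD3 genes were at 0.634 (Cd3e), 0.279 (Cd3g) and 0.210 CPM per kb (Cd3d), while Lck was at 39.0 CPM per kb.

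**Figure D1:**
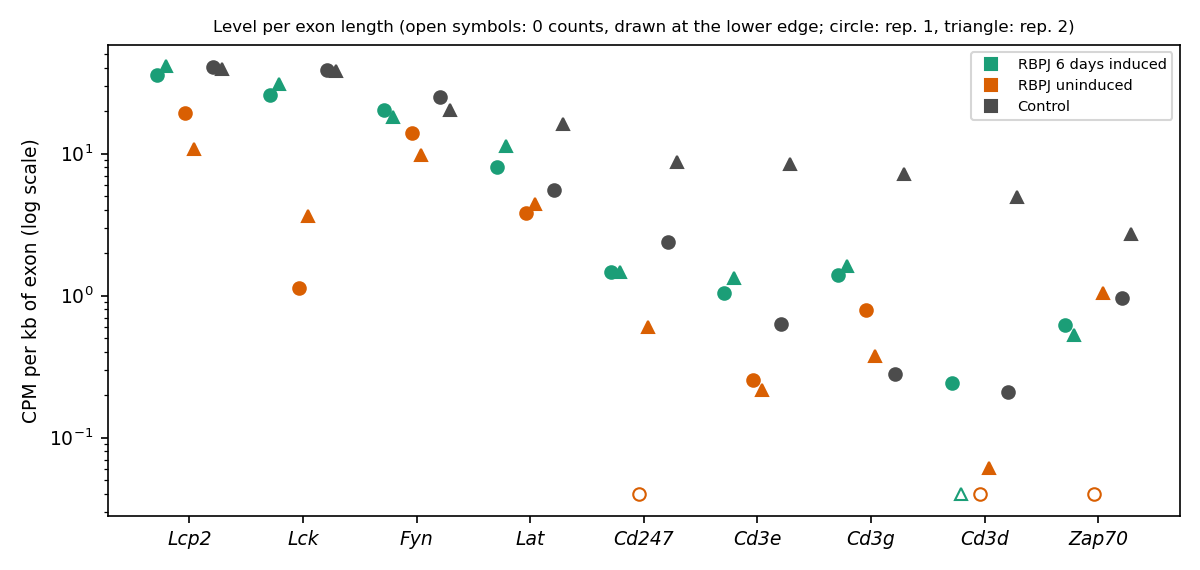
Level of each gene in each library, in CPM per kb of exon on a log axis, with genes ordered by their Control mean, groups by colour and replicates by symbol. Lck stood at 1.13 and 3.65 CPM per kb in uninduced libraries, against 39.0 and 38.4 CPM per kb in Control libraries, and open symbols are libraries with 0 counts.

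RBPJ uninduced against Control libraries asked which of these transcripts differ when RBPJ is missing. Lck and Lcp2 fell. All 8 genes that could be tested had a fold change below 0, and 2 of the 8 passed the threshold of 0.05 on the adjusted p of edgeR's quasi-likelihood test, which 2.93% of all 18174 genes tested passed as lower. The median log2 fold change of the 8 was -2.21, beside -0.02 over all genes tested. That median was -1.34 without Control replicate 2 (0.08 over all genes). Cd3d entered the fits without Control replicate 1 or uninduced replicate 2, so their medians cover 9 members. They were -3.60 without Control replicate 1 (-0.11 over all genes) and -4.09 without uninduced replicate 2 (-0.25). Of the 8, 6 lay lower in both uninduced libraries than in both Control libraries, as did 22.2% of all genes tested. Cd3d had too few counts to enter the test with all libraries. In bulk RNA of sorted cells, fewer cells that express a gene and less RNA of it per cell cannot be told apart.

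Lck, the kinase that starts receptor signalling, had 3.30 and 10.7 CPM in uninduced libraries, against 114 and 113 CPM in Control libraries. The Control libraries were nearly equal and far above both uninduced ones. The log2 fold change was -3.96 (SE 0.430, 95% interval -4.93 to -3.0, adjusted p = 0.00173), and it stayed past the threshold in every alternative listed under processing, leaving out each library included. Fyn, a Src family kinase found in many cell types, had 60.5 and 42.6 CPM in uninduced and 109 and 88.1 CPM in Control libraries. The groups did not overlap, and the log2 fold change of -0.94 (SE 0.237) narrowly missed the threshold (adjusted p = 0.0531). Fyn was past it in DESeq2 (adjusted p = 0.00546), with RLE size factors (0.0465), without a low-count filter (0.0138) and with a replicate block (0.0295). Leaving out uninduced replicate 1 gave -1.27 (adjusted p = 0.00453), and leaving out induced replicate 2 gave -1.02 (adjusted p = 0.0433). It was not past the threshold in the other fits that left out 1 library (-0.73 to -1.18, adjusted p = 0.0759 to 0.283) or in the fit of 4 libraries (adjusted p = 0.158).

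Zap70, the kinase that binds the phosphorylated CD3 tails, was scarce throughout. It had 0 and 28 counts in uninduced libraries (0 and 3.12 CPM) and 38 and 46 counts in Control libraries (2.89 and 8.14 CPM). The 0 of uninduced replicate 1 allows up to 0.522 CPM, the level of 3 counts there. The groups overlapped, and the log2 fold change of -1.76 had a 95% interval of -4.89 to 1.37 (adjusted p = 0.582). All Zap70 counts of the uninduced group came from uninduced replicate 2, the library with 747 CPM of B-lineage markers. It also held more of several natural killer and innate lymphoid markers. Il2rb had 0 and 25.1 CPM in uninduced replicates 1 and 2, Eomes 0 and 8.36 CPM, and Ncr1 0 and 7.91 CPM. Nkg7, Gzmb and Klrd1 were lower in replicate 2. In replicate 1, 5 of the 10 such markers had 0 counts, and in replicate 2 all were detected. The part of these cells in the result was not tested. Without uninduced replicate 2 the fold change was -8.65, set against a library with no counts, and is no measure of size. The log2 fold change of Zap70 was -0.83 without uninduced replicate 1 and -0.97 without Control replicate 2.

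Among the adaptors, Lcp2, which encodes SLP-76, had 86.6 and 48.2 CPM in uninduced libraries, against 181 and 174 CPM in Control libraries. Both uninduced libraries lay below both Control libraries, and the log2 fold change was -1.40 (SE 0.267, 95% interval -2.00 to -0.80, adjusted p = 0.0189). Leaving out any 1 library kept this call, while the fit of only the 4 libraries compared lost it (-1.42, adjusted p = 0.101). Lat, the membrane anchor of the same signalling complex, had 10.6 and 12.3 CPM in uninduced libraries and 15.3 and 44.8 CPM in Control libraries. The groups did not overlap, but the Control libraries lay farther from each other than the group means did. For Lat the log2 fold change was -1.38 (SE 0.484) at an adjusted p of 0.153. The fold change of Lat was -0.52 (adjusted p = 0.64) without Control replicate 2, and -1.94 without Control replicate 1, where it was past the threshold (adjusted p = 0.0366).

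The CD3 chains were far higher in Control replicate 2 than elsewhere. Cd3e, which pairs with either of the other CD3 proteins, had 1.04 and 0.892 CPM in uninduced libraries (6 and 8 counts), against 2.59 and 34.5 CPM in Control libraries. Cd3g, a partner of CD3 epsilon, had 2.61 and 1.23 CPM in uninduced and 0.914 and 23.4 CPM in Control libraries. Control replicate 2 was thus far above the rest in both genes, and Control replicate 1 lay near or below the uninduced libraries in Cd3g. Cd3d, the remaining partner of CD3 epsilon, had 0 and 1 count in uninduced libraries and 5 and 51 counts in Control libraries. The log2 fold change of Cd3e was -4.24 with an SE of 1.08 (adjusted p = 0.0555), and that of Cd3g was -2.66 with an SE of 1.18 (adjusted p = 0.265). Cd3e was past the threshold in DESeq2 (adjusted p = 0.0012), with a replicate block (0.0391) and without a low-count filter (1.84e-06). With RLE size factors (0.0575) and in the fit of 4 libraries (0.165) it was not. Cd3g was past it without a filter (0.021) and not in DESeq2 (0.138) or with the block (0.465). Cd3e passed the threshold when any library other than Control replicate 2 was left out (adjusted p = 0.00239 to 0.0464), and Cd3g passed without Control replicate 1 (-3.60, adjusted p = 0.0287).

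The zeta chain gene Cd247 differed from the other CD3 genes in Control replicate 1. It had 0 and 3.23 CPM in uninduced libraries (0 and 29 counts), against 12.7 and 46.2 CPM in Control libraries. Both Control libraries lay above both uninduced ones, and the log2 fold change was -4.05 (SE 1.03, adjusted p = 0.0547). Cd247 was past the threshold with a replicate block (adjusted p = 0.00669) and without a low-count filter (8.59e-11). In DESeq2 (0.12), with RLE size factors (0.0519) and in the fit of 4 libraries (0.173) Cd247 was not. It was past the threshold without either uninduced library, either induced library or Control replicate 1 (adjusted p = 0.000204 to 0.0336), and not without Control replicate 2 (-3.01, adjusted p = 0.292). Exons of Cd247 overlap those of Pou2f1 on the opposite strand over 3007 bases, and without a stated strand setting their reads cannot be told apart. They also overlap those of Gm16565 on the same strand over 206 bases. Pou2f1 itself stood at 86.6 and 96.1 CPM in uninduced and 89.6 and 96.2 CPM in Control libraries.

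Summed over the 4 CD3 genes, uninduced libraries held 3.65 and 5.46 CPM and Control libraries 16.6 and 113 CPM. Control replicate 2 is also the library with 618 CPM of later thymocyte markers, among them Cd8a at 79.96 CPM, Cd4 at 61.6 CPM and Bcl11b at 131 CPM, against 3.20, 5.41 and 5.10 CPM in Control replicate 1. The part of these cells in the CD3 result was not tested. Without Control replicate 2, Cd3g stood at a log2 fold change of 0.96 (adjusted p = 0.755), with the opposite sign, and Cd3e at -1.51 (adjusted p = 0.585). Lck and Lcp2 were at 114 and 181 CPM in Control replicate 1 and at 113 and 174 CPM in Control replicate 2. Without Control replicate 2 their log2 fold changes were -4.09 and -1.52.

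**Figure D2:**
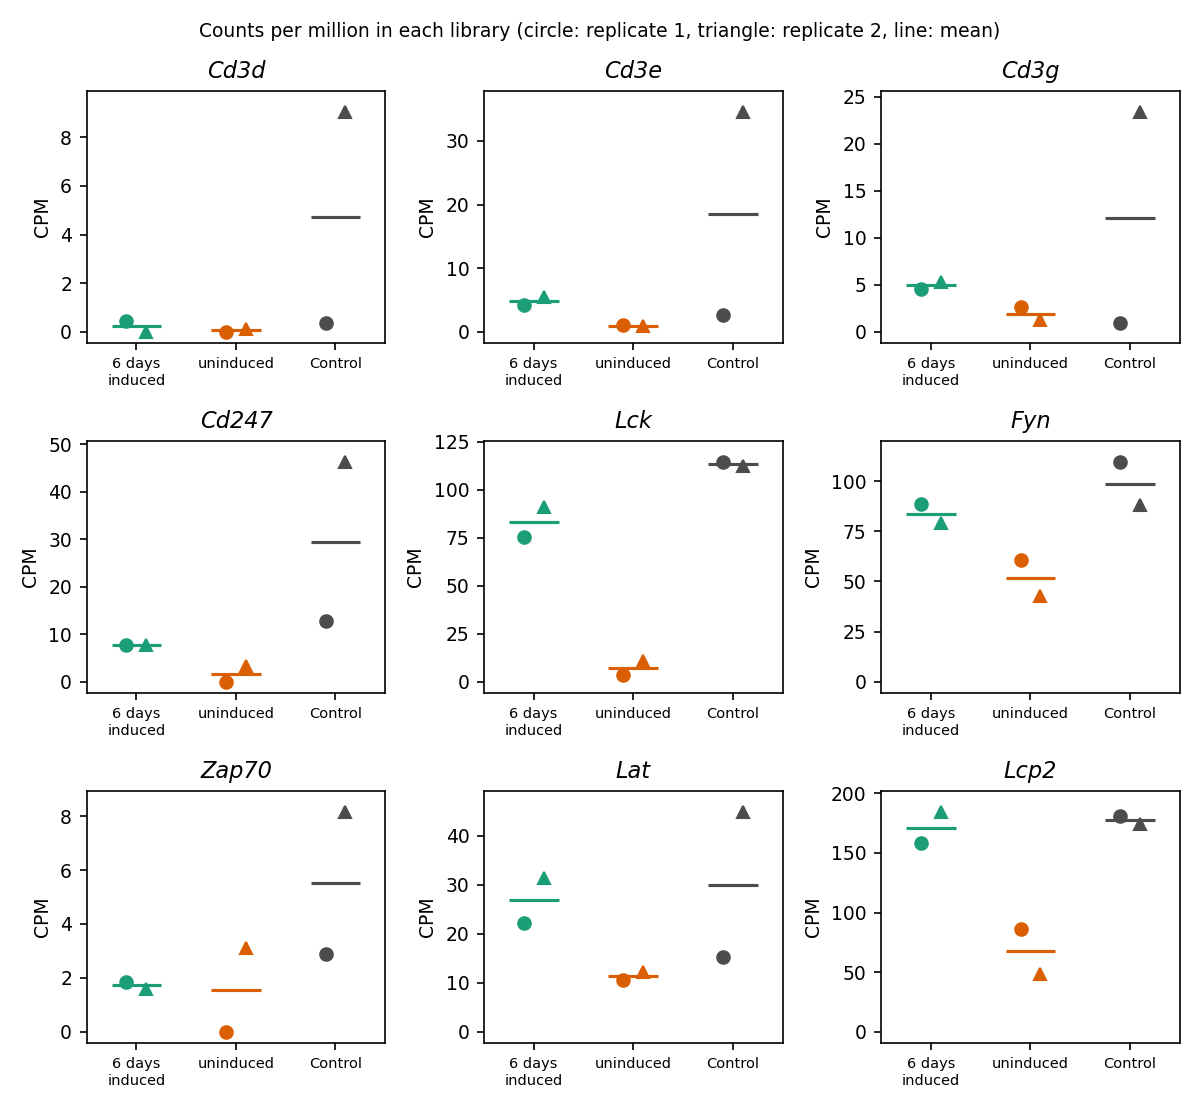
CPM of each gene in each library on a linear axis from 0, with the mean of each group as a line. Lck and Lcp2 lay close together in the Control libraries, while the CD3 genes, Cd247 and Zap70 were highest in Control replicate 2, as in Cd3e at 34.5 CPM against 2.59 CPM in replicate 1.

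The count of 2 members also depended on single libraries. It was 5 without uninduced replicate 1 or 2, 4 without induced replicate 1, 5 without induced replicate 2 and 6 without Control replicate 1, always in the lower direction. Cd3d entered these 5 fits, so 9 members were tested in each. The share of all genes called in either direction was 5.42% with all libraries, and it was 9.52% without uninduced replicate 1, 8.52% without uninduced replicate 2, 4.49% without induced replicate 1, 4.85% without induced replicate 2 and 2.09% without Control replicate 1. Markers of other cells differed with the uninduced group. The 5 mast cell markers summed to 873 and 567 CPM in uninduced and 82.8 and 68.1 CPM in Control libraries, and the 7 myeloid markers to 4350 and 3250 CPM in uninduced and 571 and 501 CPM in Control libraries. The 5 gamma-delta T-cell markers summed to 12.7 and 13.8 CPM in uninduced libraries, 3 of the 5 with no counts in replicate 1, and to 82.8 and 67.9 CPM in Control libraries. The 8 mature T-cell markers summed to 267 and 233 CPM in uninduced and 594 and 509 CPM in Control libraries. Their part in the fall of Lck and Lcp2 was not tested.

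RBPJ 6 days induced against RBPJ uninduced libraries asked what differed once RBPJ was expressed again. Lck and Lcp2 rose. Both were among 2 of 8 members past the threshold, which 1.55% of all genes tested passed as higher, and all 8 fold changes were above 0, with a median of 1.37 on the log2 scale beside -0.03 over all genes. Without uninduced replicate 2, where Cd3d was also tested, the median of 9 members was 2.21 (0.20 over all genes). Of the 8, 7 lay higher in both induced libraries than in both uninduced libraries, as did 24.8% of all genes tested. Both comparisons use the same uninduced libraries, so the values are not an independent check of those above. The mast cell markers summed to 334 and 342 CPM and the myeloid markers to 742 and 1630 CPM in induced libraries, both below the uninduced libraries. The gamma-delta markers summed to 72.0 and 57.7 CPM and the mature T-cell markers to 590 and 566 CPM in induced libraries, both above the uninduced libraries. The 10 markers of natural killer and innate lymphoid cells summed to 127 and 105 CPM in induced, 94.2 and 131 CPM in uninduced and 61.5 and 75.7 CPM in Control libraries. Of these 10, 5 had 0 counts in uninduced replicate 1, and all were detected in uninduced replicate 2. The 5 megakaryocyte markers summed to 71.6 and 90.5 CPM in induced, 115 and 72.1 CPM in uninduced and 18.2 and 23.5 CPM in Control libraries. The part of these cells in the result was not tested.

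Lck had 75.7 and 91.1 CPM in induced libraries, against 3.30 and 10.7 CPM in uninduced libraries. The groups were far apart, with a log2 fold change of 3.52 (SE 0.424, 95% interval 2.57 to 4.47, adjusted p = 0.00557). Fitted with the 4 libraries compared alone, Lck was not past the threshold (3.55, adjusted p = 0.0563). Lcp2 had 158 and 184 CPM in induced libraries, against 86.6 and 48.2 CPM in uninduced libraries (log2 fold change 1.35, SE 0.266, adjusted p = 0.0389). The call of Lcp2 was lost in the fit of 4 libraries (1.34, adjusted p = 0.13) and without induced replicate 2 (1.29, adjusted p = 0.0744), where 1 member was past the threshold.

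The other kinases and the adaptor Lat gave smaller differences. Fyn had 88.8 and 78.9 CPM in induced and 60.5 and 42.6 CPM in uninduced libraries, without overlap (log2 fold change 0.71, SE 0.236, adjusted p = 0.181). It was past the threshold without uninduced replicate 1 (1.03, adjusted p = 0.0239). Lat had 22.3 and 31.4 CPM in induced and 10.6 and 12.3 CPM in uninduced libraries, also without overlap (1.23, SE 0.480, adjusted p = 0.253). Zap70 had 1.86 and 1.58 CPM in induced and 0 and 3.12 CPM in uninduced libraries, where the induced values lay between the uninduced ones (0.10, 95% interval -2.99 to 3.18, adjusted p = 0.982). The sign of that Zap70 difference turned without uninduced replicate 1 (-0.80) and without induced replicate 1 (-0.01).

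The CD3 chains had steady values in the induced libraries. Cd3e had 4.24 and 5.40 CPM in induced and 1.04 and 0.892 CPM in uninduced libraries (log2 fold change 2.31, SE 1.04, adjusted p = 0.332). Cd3g had 4.59 and 5.31 CPM in induced and 2.61 and 1.23 CPM in uninduced libraries (1.39, SE 1.15, adjusted p = 0.632). Cd247 had 7.77 and 7.83 CPM in induced and 0 and 3.23 CPM in uninduced libraries (2.14, SE 0.987, adjusted p = 0.342). In each of these genes both induced libraries lay above both uninduced ones, and none passed. Cd247 was past the threshold without uninduced replicate 2 (adjusted p = 0.00397), with a fitted fold change set against 0 counts. Cd3d had 5 and 0 counts in induced and 0 and 1 count in uninduced libraries, which is at or near the floor of 3 counts in all 4.

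**Figure D3:**
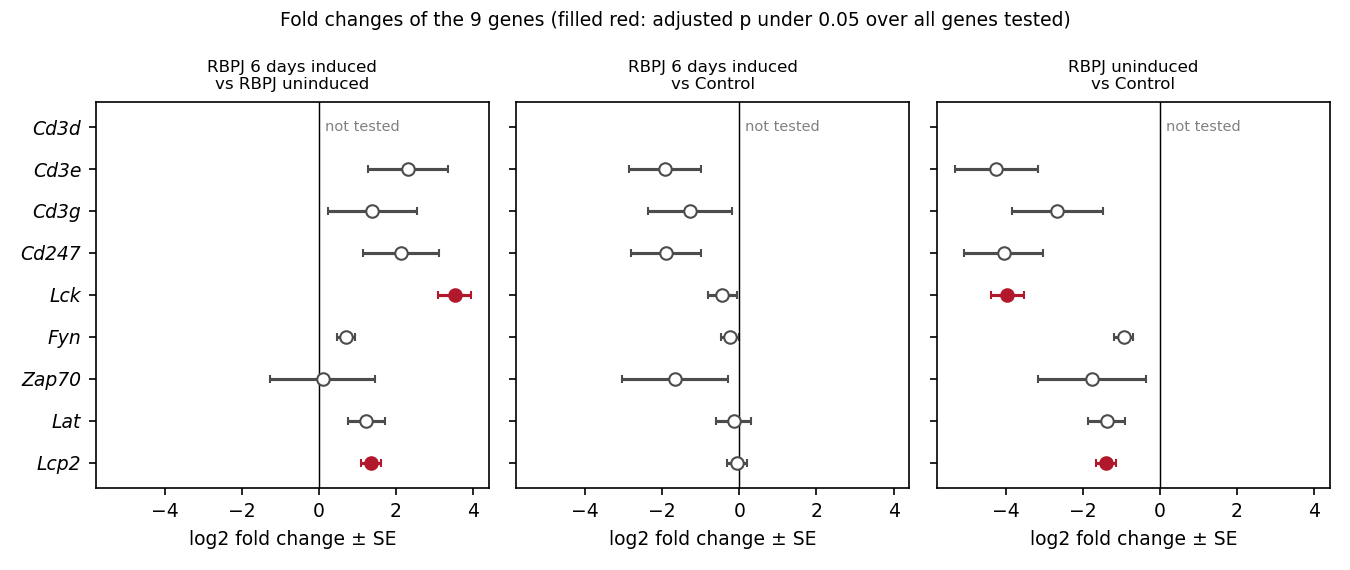
Log2 fold change with its standard error for each gene in the 3 comparisons, filled where the adjusted p over all genes tested was under 0.05. Lck and Lcp2 passed in induced against uninduced and in uninduced against Control libraries, and the wide bars of Cd3e, Cd3g, Cd247 and Zap70 reach an SE of 1.39.

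RBPJ 6 days induced against Control libraries asked how close these transcripts came to the level of mice that always had RBPJ. Rbpj RNA itself was above the Control level in induced libraries. Its log2 fold change was 1.45 in edgeR's test (95% interval 1.04 to 1.86, adjusted p = 0.0175). By edgeR 0 of the 8 tested members passed, with 0 at an unadjusted p under 0.05, and the DESeq2 count was 0. Among all genes tested 0.187% passed in either direction. Lck had 75.7 and 91.1 CPM in induced libraries, below both Control libraries at 114 and 113 CPM (log2 fold change -0.44, 95% interval -1.27 to 0.38). Lcp2 had 158 and 184 CPM in induced libraries, around 181 and 174 CPM in Control libraries (-0.05, 95% interval -0.64 to 0.53). Fyn had 88.8 and 78.9 CPM in induced and 109 and 88.1 CPM in Control libraries (-0.24, 95% interval -0.76 to 0.29). For Lat the difference was -0.15 (95% interval -1.20 to 0.90). These intervals bound the difference and do not show that the groups are equal.

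For the CD3 genes the comparison with Control turned on which Control library was used. Cd3e was at -1.92 (95% interval -4.02 to 0.17), and without Control replicate 2 at 0.85. Cd3g was at -1.27 (95% interval -3.73 to 1.19), and without Control replicate 2 at 2.38. Cd247 was at -1.90 (95% interval -3.94 to 0.13), and at -0.74 without Control replicate 2 (adjusted p = 1). It was past the threshold without uninduced replicate 1 (-1.87, adjusted p = 0.04) and just short of it without uninduced replicate 2 (-1.87, adjusted p = 0.058). The sum of the 4 CD3 genes was 17.0 and 18.5 CPM in induced libraries and 16.6 and 113 CPM in Control libraries. Without Cd247 it was 9.27 and 10.7 CPM in induced and 3.88 and 66.9 CPM in Control libraries, so induced libraries lay between the Control ones. Zap70 had 1.86 and 1.58 CPM in induced and 2.89 and 8.14 CPM in Control libraries (-1.66, 95% interval -4.76 to 1.43), and its difference was -0.78 without Control replicate 2.

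Transcripts from a constant gene of the receptor beta chain were also counted, which does not show an assembled receptor. Trbc1 had 76.3 and 81.4 CPM in induced, 4.17 and 2.23 CPM in uninduced and 258 and 184 CPM in Control libraries. It has a near-identical copy, Trbc2, with which it can share reads. Trbc1 rose by 4.67 on the log2 scale in induced against uninduced libraries (adjusted p = 0.000507), and fell by 6.16 in uninduced against Control libraries (adjusted p = 6.33e-05). Trac, the constant gene of the alpha chain, had 2.47 and 0.186 CPM in induced, 0 and 0.334 CPM in uninduced and 1.52 and 13.6 CPM in Control libraries.

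Other kinases of the family to which LCK and FYN belong were measured in the same libraries. Lyn, the Src family kinase of myeloid and B cells, had 122 and 133 CPM in induced, 93.2 and 136 CPM in uninduced and 104 and 94.6 CPM in Control libraries. Blk, a B-lineage member of the family, had 7.77 and 7.83 CPM in induced, 3.48 and 30.4 CPM in uninduced and 21.7 and 22.5 CPM in Control libraries.

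Members were also expressed as a share of the summed CPM per kb of their close relatives, with no test, because an exact two-sided permutation test of 2 against 2 cannot go below p = 0.333. ZAP70 has one close relative, SYK, which serves B-cell and Fc receptors, and Zap70 took 2.11% and 1.43% of the pair in induced, 0% and 2.31% in uninduced and 2.81% and 8.99% in Control libraries. On CPM without length the mean share of Zap70 was 0.574% in induced, 0.375% in uninduced and 1.99% in Control libraries. Syk itself had 269 and 342 CPM in induced, 253 and 413 CPM in uninduced and 313 and 258 CPM in Control libraries, with the 3 groups overlapping. The zeta chain has a counterpart in the Fc receptor gamma chain, Fcer1g. Cd247 took 6.49% and 6.60% of that pair in induced, 0% and 2.92% in uninduced and 22.8% and 76.7% in Control libraries per exon length. On CPM without length its mean share was 29.9% in induced, 7.75% in uninduced and 79.7% in Control libraries, so the size of this share depends on the exon lengths used. The exon overlaps of Cd247 with Pou2f1 and Gm16565 limit its level per exon length and this share too. Fcer1g had 18.4 and 18.2 CPM in induced, 16.2 and 17.6 CPM in uninduced and 7.08 and 2.30 CPM in Control libraries.

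The adaptors were set against their own relatives too. Lat took 22.2% and 29.4% of Lat and its relative Lat2 in induced, 20.4% and 29.6% in uninduced and 14.7% and 40.3% in Control libraries, with all 3 groups overlapping. Lcp2 took 73.1% and 70.8% of the sum with its relatives Blnk and Clnk in induced, 71.3% and 42.4% in uninduced and 72.0% and 76.3% in Control libraries. The uninduced shares lay below the Control shares and overlapped the induced ones, and the lowest belongs to uninduced replicate 2, where the B-cell adaptor Blnk had 58.5 CPM, against 2.09 CPM in replicate 1.

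The wider pathway was described by lists of other genes. Of 26 tested kinases, adaptors and effectors that act beside or after the members, 5 fell and none rose in uninduced against Control libraries, where 2.93% of all genes tested fell. There were 23 of the 26 fold changes below 0, beside 9272 of 18174 over all genes, and the median of -0.84 was -0.39 without Control replicate 2 and -1.31 without uninduced replicate 2. Ptprc, the phosphatase CD45 that keeps Src family kinases ready to act, had 251 and 345 CPM in uninduced and 656 and 671 CPM in Control libraries (log2 fold change -1.16, adjusted p = 0.00956). Grap2, the adaptor GADS that links LAT to SLP-76, had 3.999 and 12.9 CPM in uninduced and 40.4 and 45.3 CPM in Control libraries (-2.31, adjusted p = 0.023). Plcg1, the phospholipase recruited by LAT, had 144 and 94.5 CPM in uninduced and 259 and 223 CPM in Control libraries (-1.02, adjusted p = 0.0342). The other two, named after their values were seen, were Prkcq, protein kinase C theta (-1.58, adjusted p = 0.0359), and Tespa1, a protein needed in thymocyte selection (-1.31, adjusted p = 0.0492). Tespa1 was lost with RLE size factors (-1.35, adjusted p = 0.0512), and all 5 calls were lost in the fit of 4 libraries (adjusted p = 0.0583 to 0.169).

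Without Control replicate 2 the count of 5 was 1. The log2 fold changes were then -2.34 for Grap2 (adjusted p = 0.0582), -1.21 for Plcg1 (0.0576), -1.26 for Prkcq (0.177) and -1.53 for Tespa1 (0.0824). Without Control replicate 1 they were -2.35 for Grap2 (adjusted p = 0.0504), -0.88 for Plcg1 (0.142) and -1.12 for Tespa1 (0.168), all no longer past the threshold. Plcg1 was also lost without uninduced replicate 2 (-0.76, adjusted p = 0.0523). The list median was -0.82 without induced replicate 1 (-0.08 over all genes) and -0.92 without induced replicate 2 (-0.16). It was -1.31 without uninduced replicate 2 (-0.25 over all genes). In induced against uninduced libraries 1 of the 26 rose, where 1.55% of all genes tested rose. It was Ptprc, with 587 and 637 CPM in induced and 251 and 345 CPM in uninduced libraries, a log2 fold change of 1.04 (adjusted p = 0.029). The list's median was 0.56. The count was 0 without induced replicate 1, where 6 had an unadjusted p under 0.05, and the call of Ptprc was lost without either induced library, at fold changes of about the same size (1.12, adjusted p = 0.12, and 1.05, adjusted p = 0.11). The list median was 0.48 without uninduced replicate 1 (0.08 over all genes) and 0.80 without uninduced replicate 2 (0.20). Without Control replicate 1 it was 0.57 (0 over all genes).

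Of 16 inhibitors of receptor signalling, 5 fell in uninduced against Control libraries, where 2.93% of all genes tested fell (median -0.62, and -0.36 without uninduced replicate 1). Lax1, an adaptor that restrains lymphocyte signalling, had 6.95 and 17.7 CPM in uninduced and 163 and 140.3 CPM in Control libraries (-3.59, adjusted p = 0.00142). Pag1, which brings the inhibitory kinase CSK to the membrane, had 46.6 and 53.2 CPM in uninduced and 161 and 166 CPM in Control libraries (-1.71, adjusted p = 0.00215). Dok2, an adaptor that dampens signalling, had 11.1 and 13.7 CPM in uninduced and 52.6 and 54.7 CPM in Control libraries (-2.10, adjusted p = 0.00338). Sla2 (-3.51, adjusted p = 0.00976) and Sla (-1.15, adjusted p = 0.0319), adaptors that promote loss of the receptor, were named after their values were seen, and Sla was not past the threshold without Control replicate 2 (-0.97, adjusted p = 0.125). In the fit of 4 libraries Sla (adjusted p = 0.119) and Sla2 (0.066) were lost. In induced against uninduced libraries 3 of the 16 rose, where 1.55% of all genes tested rose (median 0.44), namely Lax1 (2.93, adjusted p = 0.00592), Pag1 (1.17, adjusted p = 0.0222) and Dok2 (1.51, adjusted p = 0.0259). The list median was 0.42 without uninduced replicate 1 (0.08 over all genes) and 0.61 without uninduced replicate 2 (0.20). Without induced replicate 1 the calls of Pag1 (1.05) and Dok2 (1.5) were lost at fold changes of about the same size. Dok2 was also lost without induced replicate 2 (1.61, adjusted p = 0.0605), and all 3 in the fit of 4 libraries (adjusted p = 0.0563 to 0.0942).

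Of 15 counterparts that serve other receptors and lineages, 1 rose, where 2.49% of all genes tested passed as higher, and 2 fell in uninduced against Control libraries, where 2.93% passed as lower. The median of 0.21 was -0.55 without uninduced replicate 2 and -0.01 without Control replicate 2. Cd79a, a chain of the B-cell receptor, had 6.09 and 75.3 CPM in uninduced and 0.228 and 1.95 CPM in Control libraries (5.49, adjusted p = 0.0435). Its call was lost without uninduced replicate 2, the library with the B-lineage markers (2.57, adjusted p = 0.276), and without Control replicate 1 (4.43, adjusted p = 0.143) or 2 (7.29, adjusted p = 0.0698). Tyrobp, the signalling chain DAP12 of natural killer and myeloid receptors, had 15.1 and 14.0 CPM in uninduced and 43.6 and 36.8 CPM in Control libraries (-1.47, adjusted p = 0.0158). Lat2, the relative of LAT in B cells and mast cells, was at -1.14 (adjusted p = 0.0352). Without Control replicate 1, where the count was 1, Tyrobp (-1.31, adjusted p = 0.114) and Lat2 (-0.89, adjusted p = 0.219) were lost, as were all 3 calls in the fit of 4 libraries (adjusted p = 0.0837 to 0.138). The list median was 0.41 without uninduced replicate 1, 0.21 without induced replicate 1 and 0.12 without induced replicate 2. Over all genes tested these medians were -0.19, -0.08 and -0.16.

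Tyrobp alone of the counterparts rose in induced against uninduced libraries, with 36.9 and 39.3 CPM in induced libraries (1.39, adjusted p = 0.0357, list median 0.18). Without induced replicate 1 the count was 0, with 6 at an unadjusted p under 0.05, and Tyrobp was lost without either induced library at fold changes of about the same size (1.45, adjusted p = 0.167, and 1.40, adjusted p = 0.174). The list median was 0.82 without uninduced replicate 2 and 0.03 without uninduced replicate 1. Over all genes tested the medians of the same fits were 0.20 and 0.08. In induced against Control libraries no gene of the 3 lists passed in edgeR or DESeq2, and 1, 2 and 3 genes of the lists in this order had an unadjusted p under 0.05. The smallest p in each belonged to Themis, a thymocyte selection protein (-3.13, adjusted p = 0.645), Pag1 (-0.54, adjusted p = 0.684) and Fcer1g (1.91, adjusted p = 0.315). Themis stood at 6.00 and 4.38 CPM in induced libraries and at 3.50 and 88.6 CPM in Control libraries, high in the same replicate 2 as Cd3e. Its fold change was 0.53 without Control replicate 2 (adjusted p = 1), with the opposite sign, and -4.04 without Control replicate 1 (adjusted p = 0.0038). Fcer1g passed without uninduced replicate 1 (1.87, adjusted p = 0.0344) or uninduced replicate 2 (1.87, adjusted p = 0.0494), and was at 3.03 without Control replicate 1 (adjusted p = 0.123). Leaving out Control replicate 1 gave 1 call in the first list, and leaving out uninduced replicate 1 or 2 gave 3 among the counterparts.

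**Figure D4:**
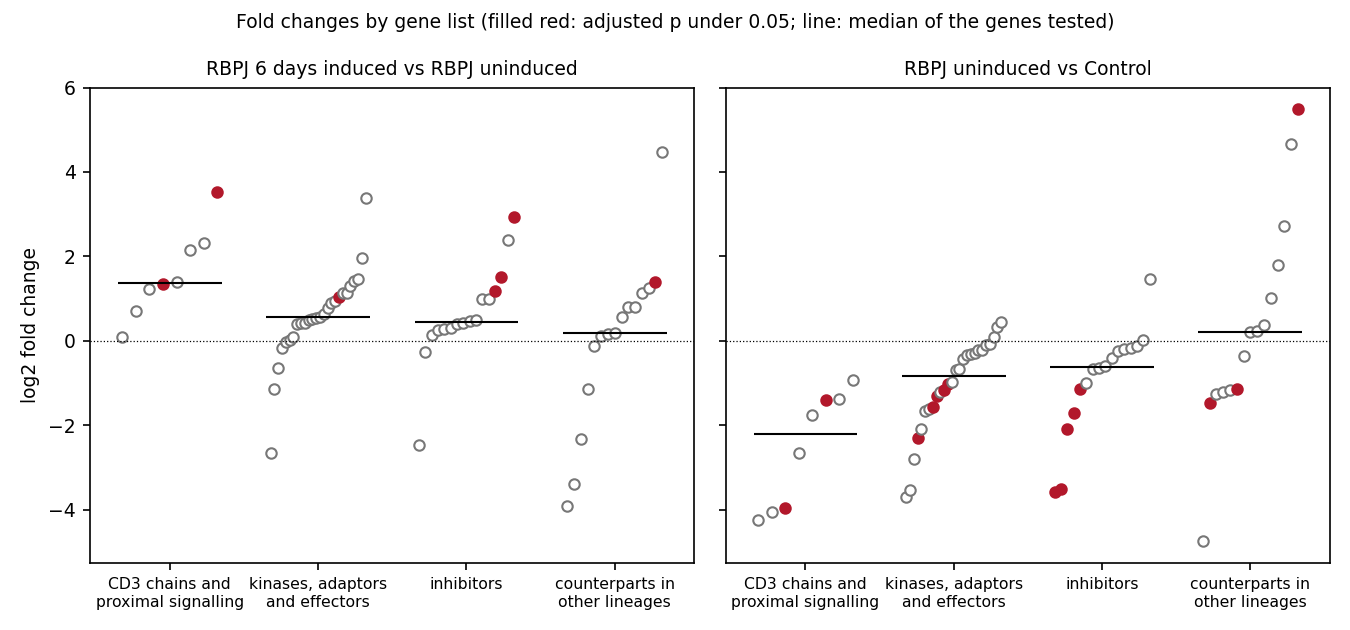
Log2 fold change of every tested gene of the 4 lists in induced against uninduced and in uninduced against Control libraries, sorted within each list, with the median as a line. The medians of the CD3 and proximal genes were 1.37 and -2.21, and those of the counterparts 0.18 and 0.21. Without uninduced replicate 2 the medians were 2.21 and -4.09 for the CD3 and proximal genes and 0.82 and -0.55 for the counterparts. Cd3d was also tested in that fit, so its medians of the CD3 and proximal genes cover 9 genes.

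The members did not share a single profile over the 6 libraries. On log2 CPM centred on each gene's mean, their average profile was 0.35 and 0.50 in induced, -1.89 and -0.98 in uninduced and 0.24 and 1.79 in Control libraries. Lat was closest to it, with a root-mean-square difference of 0.57, and Cd247 farthest, with 1.32. Lck was at 0.97 and 1.23 in induced, -3.46 and -1.83 in uninduced and 1.56 and 1.54 in Control libraries, with nearly equal Control replicates. Cd3g was at 0.35 and 0.55 in induced, -0.42 and -1.39 in uninduced and -1.74 and 2.64 in Control libraries, with its lowest and highest values both in the Control group. Outside the 9 genes, those with profiles most like the average were Serpina3f (0.23), whose close copies can share its reads, Sytl3 (0.27), Mgst2 (0.27), Fgfr1 (0.33) and Gm37248 (0.33), over 6 libraries. Serpina3f had 28.8 and 31.9 CPM in induced, 4.52 and 13.8 CPM in uninduced and 22.8 and 61.7 CPM in Control libraries.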

How the data were processed

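The values are RNA-seq counts of sorted thymus DN1a/b cells in 6 libraries. The authors deposited whole-number counts per Ensembl gene, without normalization. Per the submitters' processing notes the build was mm10 and the tools HTSeq, HISAT2 and StringTie. Neither their roles nor the strand setting or annotation release is stated in the sources used here. Names, exon lengths and overlaps come from GENCODE M21 and promoters from RefSeq (GRCm38.p6), in which all 9 members matched by symbol.

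The 9 genes and the lists were chosen with earlier results of these data known. The test was run with edgeR 4.0.16 in R 4.3.3 (filterByExpr with a minimum count of 10 and minimum total of 15, which kept 18174 genes and 8 members, TMM factors from 0.824 to 1.13). All 6 libraries entered 1 quasi-likelihood fit of 3 group means, leaving 3 residual degrees of freedom and assuming a spread shared by the groups. P-values were adjusted over all tested genes by the Benjamini-Hochberg method, with a threshold of 0.05. The SE is the log2 fold change divided by the square root of F, and intervals are 95%. CPM per kb divides by the union of exons. Floors are 3 counts per library and cover counting error only.

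Alternatives were RLE size factors, DESeq2 1.42.0, no low-count filter, a fit of only the 4 libraries compared, a block for replicate number, each library left out in turn, and shares without exon length. Named from the pathway lists were up to 3 genes past the threshold with the smallest p (or the 1 with the smallest), the relatives in the shares, and the 5 genes with the most similar centred profile and an average log2 CPM of at least 2. The fit was tested on simulated counts. Chi-square per degree of freedom between replicates was 16.4 in induced, 54.1 in uninduced and 20.6 in Control libraries, more than counting noise gives, which does not tell separate mice from repeat preparations.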

Additional observations from a re-analysis of the deposited data

How the results depend on the processing

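Over the 8 tested genes, 3 comparisons and 11 alternatives, 218 values kept their direction and side of the threshold, 33 passed only in the alternative, 4 were lost and 9 changed sign. For uninduced against Control the 2 calls were 4 in DESeq2 (11.4% of all genes called, beside 5.42% in edgeR), 7 of 9 without a low-count filter (4.31%), 1 with the 4 compared libraries and 2 to 6 without single libraries. For induced against uninduced the 2 calls were 5 of 9 without a filter (2.77% of all genes called, beside 1.96% in the main fit). With 4 libraries they were 0 (0.457% of all genes), with 5 at an unadjusted p under 0.05. Without single libraries the median of the 8 or 9 members tested ran from 1.32 to 2.21. For induced against Control the 0 calls were 1 without a filter, where 0.852% of all genes were called. The cause was not tested, except that 4 libraries leave fewer samples in the fit.

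Kinases, adaptors and effectors gave, for uninduced against Control, 10 in DESeq2, 10 without a filter and 0 with 4 libraries (10 unadjusted). Of all genes 11.4%, 4.31% and 1.42% were called in these settings. For induced against uninduced they gave 6, 6 and 0 (10 unadjusted), beside 9.63%, 2.77% and 0.457% of all genes. The same shares stand beside the inhibitors and counterparts. Without single libraries the medians of this list ran from -1.31 to -0.39 for uninduced against Control and from 0.48 to 0.80 for induced against uninduced. For induced against Control the list gave 2 without a filter, beside 0.852% of all genes. Inhibitors gave 3 with 4 libraries for uninduced against Control, and for induced against uninduced 5 in DESeq2, 6 without a filter, 0 with 4 libraries (7 unadjusted) and 1 to 5 without single libraries. Counterparts gave, in the same order of settings, 6, 6, 0 (7 unadjusted) and 1 to 8 for uninduced against Control, and 3, 5, 0 (6 unadjusted) and 0 to 7 for induced against uninduced. For induced against Control they gave 1 without a filter (0.852% of all genes called) and 1 with 4 libraries (1.08%).

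Signs that turned belong to leave-one-out ranges. For induced against Control these ran from -2.79 to 0.85 (Cd3e), -2.19 to 2.38 (Cd3g), -0.69 to 0.77 (Lat) and -0.18 to 0.08 (Lcp2), for uninduced against Control from -3.60 to 0.96 (Cd3g), and for induced against uninduced from -0.80 to 7.01 (Zap70). Where a group keeps 1 library, that library is assumed to vary like the others.

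Libraries with the same replicate number did not deviate together (correlations of same-numbered deviations 0.03, -0.04 and 0.01). The labels do not say whether they were paired, and these correlations cannot show it. With the replicate number as a block, 5 members passed for uninduced against Control, all lower, where 6.31% of all genes tested were called. The 5 counterparts that passed there were 3 higher and 2 lower. For induced against uninduced 4 kinases, adaptors and effectors and 3 counterparts passed, where 2.94% of all genes tested were called. Depth limits Cd3d, Cd3e, Cd3g, Cd247 and Zap70 most, with 0 to 29 counts in uninduced libraries.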
